A study of Homo sapiens with 9 samples.

Results

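The regions described here are stretches of autosomal chromatin that carried oxidised histone H3 lysine 4 (H3K4ox) in both ChIP-seq replicates and that also held a peak of accessible chromatin from ATAC-seq. Autosomal H3K4ox peaks of the replicates were merged wherever they overlapped by 1 bp or more, which gave 29126 regions. Of these, 19612 held peaks of both replicates, and 1115 of the 19612 overlapped an ATAC peak by 1 bp or more, that is 5.69%. These 1115 regions were chosen by measured values, the positions of H3K4ox and ATAC peaks, so what follows is a description of the chosen set, with no test, and regions of 1 library are not replicates of a condition. All intervals are exact 95% intervals that cover counting error only.

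The cells were MDA-MB-231, an established triple-negative breast cancer line. H3K4ox ChIP was done in 2 replicates on sonicated nuclei, with an antibody that the laboratory raised itself against modified peptides coupled to keyhole limpet hemocyanin. The labels give these cells no hairpin or treatment, and they do not say whether the replicates came from separate cultures. ATAC-seq was done in 1 shControl library and in 1 shLOXL2 library, from cells infected with an shRNA against LOXL2. The ATAC list analysed here has peak names that carry shLOXL2, but the sample descriptions of shControl and shLOXL2 alike refer to it. The H3K4ox and the ATAC values therefore come from different libraries, of cells that may differ in LOXL2, and what that does to the overlap was not tested. The H3 ChIP library and RNA libraries of the series were not used here.

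LOXL2 belongs to the lysyl oxidases, copper enzymes that oxidise the side chain of lysine. On histone H3 it has been described as removing the amino group of lysine 4, which leaves the oxidised form called H3K4ox. Methylated H3K4 marks active promoters and enhancers, whereas the title of the series ties H3K4ox to condensed chromatin. ATAC-seq reads out the opposite property, because its transposase inserts adapters into DNA that is not packed away. The comparison asks how often, where and how strongly the ATAC list marks DNA that carries H3K4ox.

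The H3K4ox lists held 24672 autosomal peaks in replicate 1 and 25150 in replicate 2, with 3420386 and 3305065 tags inside them. The ATAC list held 53481 autosomal peaks, most of them small. Their median length was 55 bp, which was also the lowest, and their median pileup (the number of reads stacked at the summit) was 4. The median −log10 q of an ATAC peak was 0.772, a q-value of 0.169, and 12800 peaks (23.9%) reached a −log10 q of 1.3. Most ATAC peaks of the list are therefore stacks of a few reads.

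Almost all members held a single small ATAC peak. Of the 1115 regions, 1073 held 1 ATAC peak, 41 held 2 and 1 held 3, which makes 1158 ATAC peaks, each in 1 region only. The highest pileup that a member held was 3 in 206 regions, 4 in 496, 5 in 306, 6 in 84 and 7 in 19. Only 4 members held an ATAC peak of pileup 8 or more. A −log10 q of 1.3 was reached in 220 members (19.7%).

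H3K4ox regions that held an ATAC peak were longer than those that did not. Their lengths ran from 822 bp over a median of 4715 bp to 11692 bp, and those of the 18497 regions without an ATAC peak from 676 bp over 3741 bp to 11135 bp. The ratio of the medians was 1.26, and the median was higher with an ATAC peak on all 22 autosomes. Regions of 4 to 6 kb made up 57.1% of the members and 43.6% of the rest, and regions of up to 3 kb 24.1% and 40.2%. Both groups had the same 2 length modes, and the members leaned to the longer one. Among the members, 94.2% consisted of 1 peak per replicate, as did 94.9% of the rest.

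**Figure D1:**
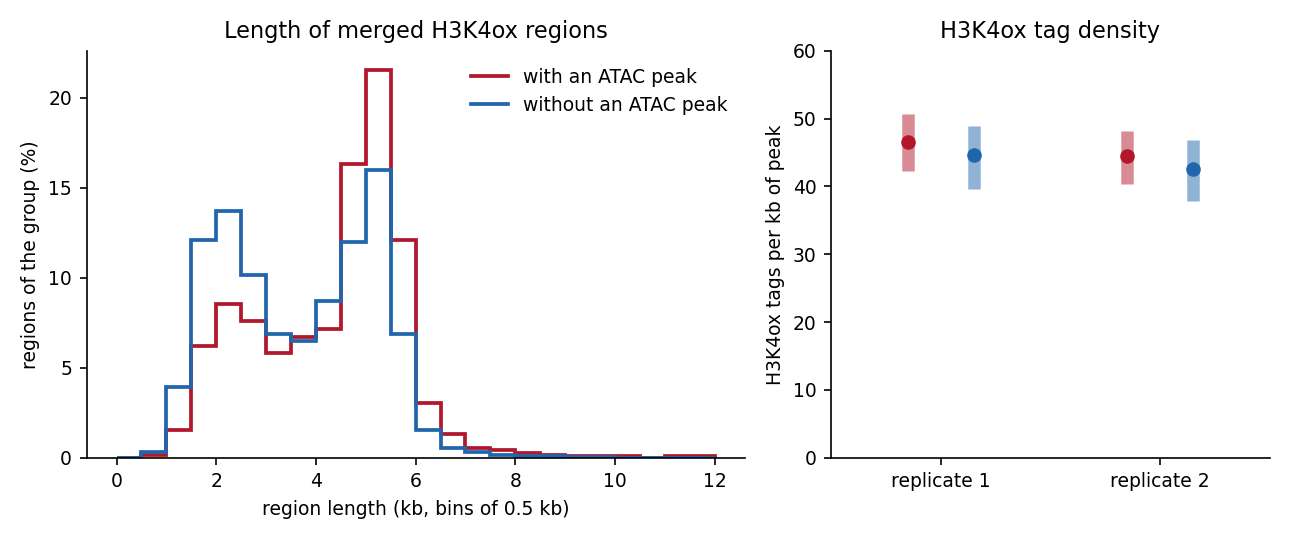
Left, lengths of merged H3K4ox regions with (red) and without (blue) an ATAC peak, as the percent of each group in bins of 0.5 kb. Right, median (point) and quartiles (bar) of H3K4ox tags per kb of peak in each replicate, where the red medians, 46.6 and 44.5, lie slightly above the blue ones, 44.6 and 42.6, and the bars overlap.

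A longer region offers more DNA in which an ATAC peak can fall, and the share of regions with one was higher in each longer class. It was 2.83% (interval 2.27 to 3.47%) among 3115 regions of up to 2 kb, 3.95% (3.40 to 4.55%) at 2 to 3 kb and 5.30% (4.48 to 6.23%) at 3 to 4 kb. At 4 to 5 kb it was 6.39% (5.66 to 7.19%), at 5 to 6 kb 8.15% (7.38 to 8.98%) and among the 594 regions over 6 kb 11.8% (9.30 to 14.7%). Counted per Mb of region, however, ATAC summits showed no such order. Their density was 16.8 per Mb (13.4 to 20.7) in regions of up to 2 kb, 14.5 per Mb (12.8 to 16.3) at 4 to 5 kb and 17.5 per Mb (13.7 to 22.1) over 6 kb. The intervals of all 6 length classes overlapped one another.

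**Figure D2:**
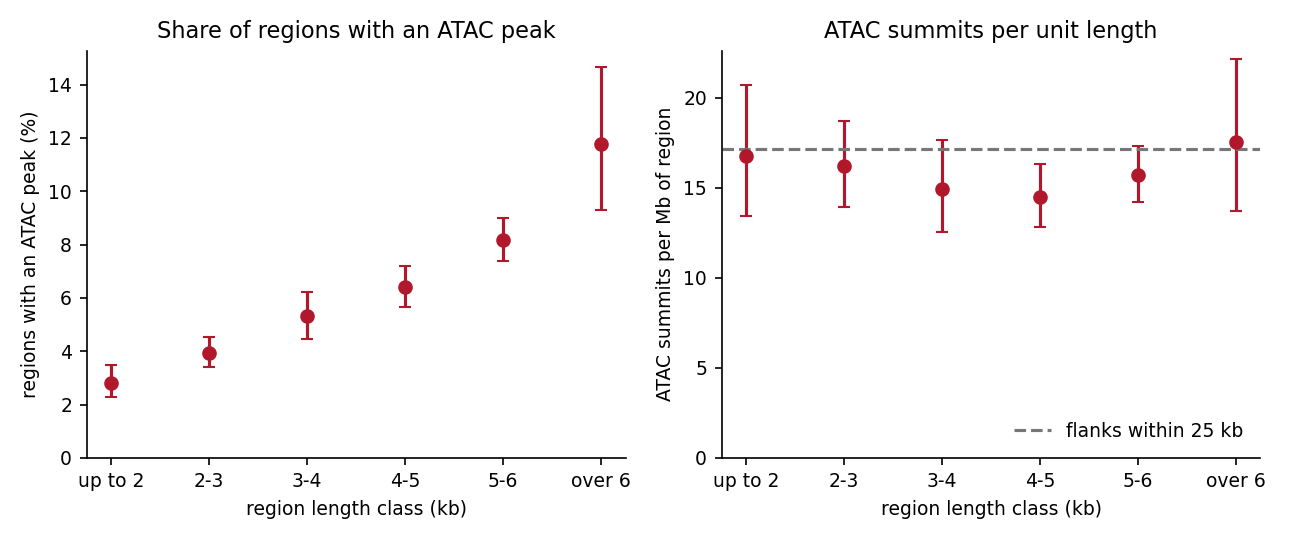
Left, percent of H3K4ox regions of both replicates that hold an ATAC peak, by length class. Right, ATAC summits per Mb of those regions, with the density in the flanks within 25 kb (17.2 per Mb) as a dashed line. Bars are exact 95% intervals. The share runs from 2.83% in the shortest to 11.8% in the longest class, while the density lies between 14.5 and 17.5 per Mb.

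Taken over all lengths, regions of a single replicate differed from those of both in share and in density, in opposite directions. An ATAC peak was held by 155 of 4514 regions of replicate 1 alone (3.43%) and by 182 of 5000 regions of replicate 2 alone (3.64%). Those regions were short, with median lengths of 1434 and 1415 bp against 3809 bp for regions of both replicates. Per Mb they held more ATAC summits, 19.6 (16.6 to 23.04) in replicate 1 alone and 22.4 (19.3 to 25.8) in replicate 2 alone, against 15.6 (14.7 to 16.5) in regions of both. Regions of both replicates of up to 2 kb, nearer to them in length, held 16.8 (13.4 to 20.7). That interval overlapped those of both single-replicate groups.

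H3K4ox tag density was slightly higher in the members. In replicate 1 the members had a median of 46.6 tags per kb of peak (quartiles 42.3 and 50.7) and the rest 44.6 (39.6 and 48.9). In replicate 2 the medians were 44.5 (40.4 and 48.2) and 42.6 (37.9 and 46.8). The quartile ranges overlapped widely, although the members' median was the higher one in replicate 1 on 20 autosomes and in replicate 2 on 21. On the log2 scale the difference between the medians was 0.06 in each replicate, and no test was run on it.

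Long regions had more tags per kb, and the members were long. Within the 6 length classes the ratio of the members' median to that of the rest ran from 1.004 to 1.06 in replicate 1 and from 1.01 to 1.03 in replicate 2. The authors' fold enrichment of a peak showed no difference of that kind, with medians of 6.47 with and 6.46 without an ATAC peak in replicate 1, and 6.25 and 6.22 in replicate 2. Members therefore stood out by length more than by fold, and a longer region has more DNA in which an ATAC peak can fall. The score, a transform of the peak's p-value, was higher in members, with medians of 210.1 and 162 in replicate 1 and of 214 and 165 in replicate 2. Scores were not compared within length classes.

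The quintile of regions densest in H3K4ox tags held somewhat more ATAC summits per Mb than the least dense. When the 19612 regions were divided into quintiles by tags per kb of replicate 1, the lowest quintile, at a median of 35.2 tags per kb, held 14.1 ATAC summits per Mb (11.8 to 16.6). The highest quintile, at 52.6 tags per kb, held 17.8 (15.9 to 19.8). Those between held 13.5, 15.7 and 15.4 in order of tags, with no steady rise. By replicate 2 the lowest and highest quintiles held 14.3 (12.0 to 16.8) and 17.2 (15.4 to 19.2) summits per Mb. Those between held 14.4, 14.6 and 16.2. The intervals of the lowest and highest quintiles overlapped in both replicates, and the quintiles also differed in median length, at 2145 and 5039 bp by replicate 1.

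Around the regions, ATAC summits were denser than inside them. Within 25 kb of the edges, outside every H3K4ox region, the density was 17.2 summits per Mb (16.9 to 17.5), so that the density inside, 15.6 per Mb, was 0.906 of it. By distance from the nearest H3K4ox region of any kind, it was 19.1 per Mb (18.0 to 20.2) in the first kb, 18.1 (17.5 to 18.6) at 5 to 10 kb and 20.2 (19.9 to 20.6) at 50 to 100 kb. The lower density inside was seen away from the edges. It was 17.8 per Mb (15.3 to 20.7) in the outermost 250 bp of the regions and 18.2 (15.6 to 21.04) in the next 250 bp, but 13.2 (11.4 to 15.3) at 1000 to 1500 bp from the edge and 13.6 (11.5 to 16.1) beyond 2000 bp. In regions of up to 3 kb alone the density was 16.4 per Mb inside and 16.3 in the flanks, a ratio of 1.004. In those of 4 to 6 kb it was 15.2 inside and 17.7 in the flanks, a ratio of 0.858. Regions over 6 kb held 17.5 per Mb (13.7 to 22.1). Whether the amount of interior accounts for these values was not tested.

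**Figure D3:**
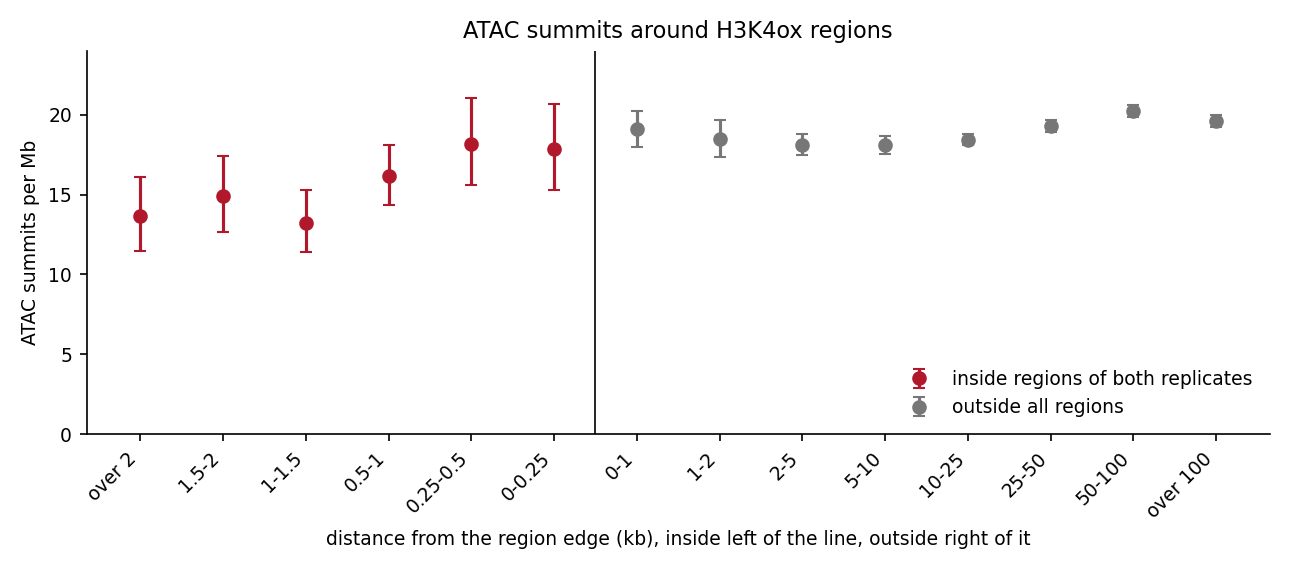
ATAC summits per Mb by distance from the edge of H3K4ox regions, inside regions of both replicates (red) and outside all regions (grey), with exact 95% intervals. Grey distances are to the nearest H3K4ox region of any kind, those of 1 replicate included. The innermost bins lie at 13.2 to 14.9 per Mb, the outermost 500 bp at about the level outside. Flanks within 25 kb of regions of both replicates held 17.2 per Mb.

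Measured from the midpoint of the members, the same ATAC summits lean toward the edges, which restates the profile above rather than adding to it. Of the 1158 ATAC peaks held, 1136 had the summit inside the region and 22 only reached in across an edge. Inside, 508 summits (44.7%, interval 41.8 to 47.7%) lay nearer to the midpoint than to the edge and 628 (55.3%) nearer to the edge. The median distance from the midpoint was 1032 bp, or 0.568 of the way to the edge. Split into 10 steps of equal width from midpoint to edge, the fewest summits in a step were 95 and the most 142.

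Most ATAC summits lay more than 500 bp from the H3K4ox summit of their region. The distance that even placement within the regions would give was not computed, so the values below show neither separation nor closeness. The median distance from an ATAC summit to the H3K4ox summit of the same region was 1012 bp in replicate 1 and 1068 bp in replicate 2. A distance of up to 500 bp was found for 25.04% and 26.9% of the ATAC peaks held. The ATAC summit lay on the same side of the midpoint as the H3K4ox summit in 49.5% of cases (46.6 to 52.4%) with replicate 1 and in 49.6% (46.6 to 52.5%) with replicate 2, about as often as on the opposite side. The H3K4ox summits of the members were themselves off centre, at a median of 0.357 and 0.360 of the way from midpoint to edge, against 0.325 and 0.324 in the rest. The summits of the replicates lay 281 bp apart at the median in members and 226 bp in the rest, with upper quartiles of 1790 and 858 bp. The upper quartile in members was thus larger than the median distances to the ATAC summit.

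The share of ATAC peaks that lay in an H3K4ox region was lower at each higher pileup. Of 8879 ATAC peaks with a pileup of 3, 2.48% (2.16 to 2.82%) had the summit in a region of both replicates. The share was 2.27% (2.08 to 2.48%) at a pileup of 4, 2.10% (1.87 to 2.34%) at 5, 1.74% (1.39 to 2.15%) at 6 and 1.25% (0.756 to 1.95%) at 7. At a pileup of 8 or more it was 4 of 1513 peaks, or 0.264% (0.0721 to 0.676%). The length of ATAC peaks gave the same order, with 2.35% of the 55 bp ATAC peaks inside such regions, 2.01% of those of 56 to 99 bp and 1.26% (0.985 to 1.58%) of those of 100 bp or more.

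**Figure D4:**
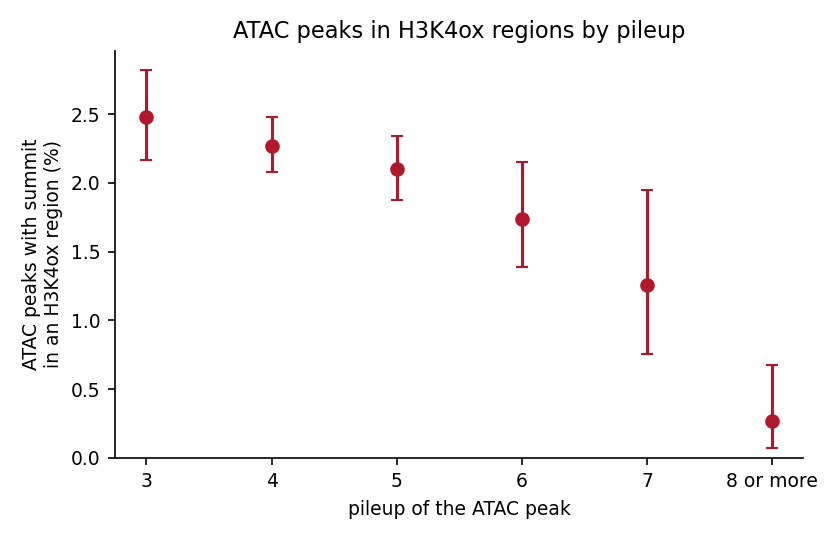
Percent of autosomal ATAC peaks whose summit lies in an H3K4ox region of both replicates, by the pileup of the ATAC peak, with exact 95% intervals. The share is 2.48% at a pileup of 3 and 0.264% at 8 or more.

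ATAC peaks of high pileup were scarcer inside the regions than in the DNA next to them. Within 25 kb of the same regions, outside all H3K4ox regions, 278 of 12439 ATAC peaks (2.23%, interval 1.98 to 2.51%) had a pileup of 8 or more, against 4 of 1136 inside (0.352%, 0.0960 to 0.899%). Elsewhere on the autosomes it was 3.10% (2.93 to 3.28%). The mean pileup was 4.30 ± 1.04 (SD over 1136 peaks) inside, 4.50 ± 1.54 (SD over 12439 peaks) in the flanks and 4.61 ± 2.10 (SD over 39569 peaks) elsewhere, while the median was 4 in all 3 places. Inside lay below the flanks in mean pileup on 18 of the 22 autosomes. A −log10 q of 1.3 was reached by 19.3% (17.0 to 21.7%) of the ATAC peaks inside and by 25.5% (24.7 to 26.3%) of those in the flanks. Elsewhere on the autosomes 23.6% (23.2 to 24.01%) reached it, fewer than in the flanks. By this measure ATAC peaks elsewhere were therefore not stronger than those in the flanks, unlike by pileup.

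The neighbourhood of the members was slightly richer in ATAC peaks. The choice used it only through the 22 ATAC peaks with the summit past the edge. Those summits can count in the densities below and were not removed. Within 25 kb of members the density outside all H3K4ox regions was 19.2 summits per Mb (18.1 to 20.5), and within 25 kb of the other regions of both replicates 17.1 (16.8 to 17.4). Within 5 kb the densities were 19.4 (16.8 to 22.2) and 17.2 (16.6 to 17.8), with overlapping intervals, and within 25 kb the density was higher around members on 14 of 22 autosomes. On chromosome 6, which had the most members, the density within 25 kb was lower around members, at 18.6 per Mb against 21.2. DNA near both a member and another region was counted on both sides. For ATAC peaks of high pileup the intervals overlapped, with a pileup of 8 or more in 1.99% (1.22 to 3.06%) of the ATAC peaks near members and in 2.25% (1.99 to 2.54%) of those near the rest. Next to a member, other members were about as frequent as elsewhere: the nearest region of both replicates was itself a member for 5.74% (4.45 to 7.27%) of members and for 5.67% (5.34 to 6.01%) of the rest. The median distance to the nearest such region was 30347 bp for members and 29327 bp for the rest.

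Members were spread over all 22 autosomes in rough proportion to the H3K4ox regions there. The share of regions with an ATAC peak was lowest on chromosome 21, with 5 of 172 (2.91%, interval 0.9505 to 6.65%), and highest on chromosome 6, with 113 of 1452 (7.78%, 6.46 to 9.28%). The highest share was on chromosome 19 instead with the peaks of 1 replicate alone, at 7.91% without replicate 1 and 6.42% without replicate 2, and at 6.51% without ATAC peaks of pileup 3. The intervals of 20 autosomes held the share of all autosomes, and the exceptions were chromosome 6 above it and chromosome 5 below it, with 74 of 1773 (4.17%, 3.29 to 5.21%). Chromosome 6 had 23.5 ATAC peaks per Mb of the chromosome span used here, 170.9 Mb, and chromosome 5 had 15.0 over 180.8 Mb. The density inside regions was below that over the chromosome's span on 19 autosomes, and above it on chromosomes 9, 13 and 18. Across the 22 autosomes the share of regions with an ATAC peak and ATAC peaks per Mb had a Spearman rho of 0.471 and a Pearson r of 0.384, a description over points that share the same libraries. Chromosome 20 had the most ATAC peaks per Mb, 33.1, yet 15 of its 296 regions (5.07%, 2.86 to 8.22%) held one.

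**Figure D5:**
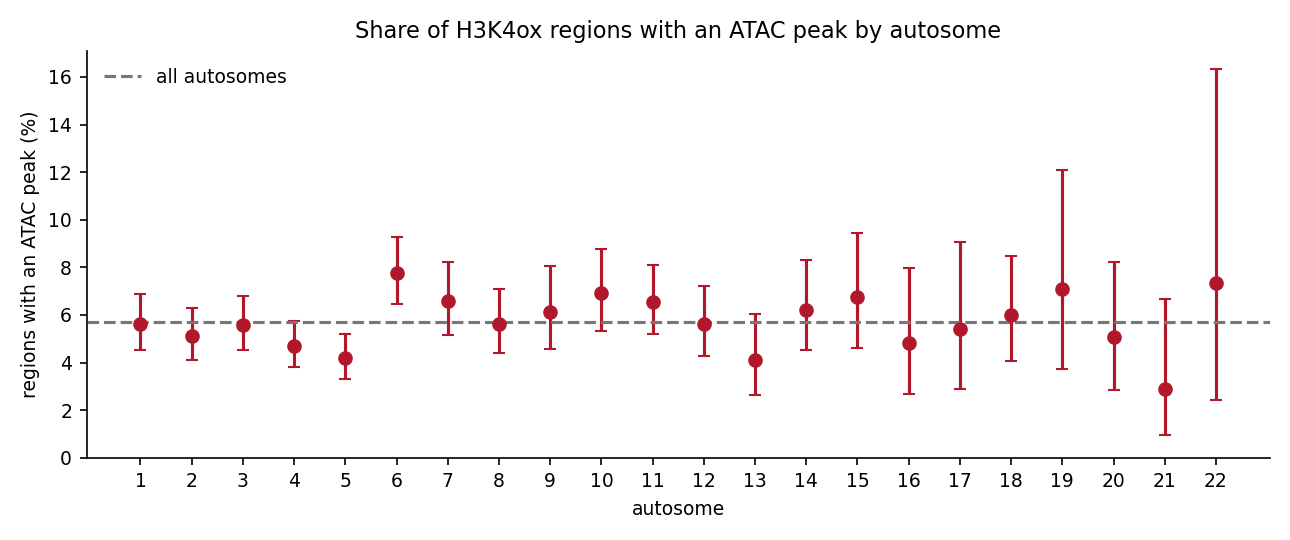
Percent of H3K4ox regions of both replicates that hold an ATAC peak on each autosome (points) with exact 95% intervals, and the share over all autosomes (dashed line). Chromosome 6, at 7.78%, and chromosome 5, at 4.17%, have intervals that leave out the dashed line.

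Single regions show what lies behind these figures. Coordinates are GRCh37, counted from 1, and folds, scores and pileups are the authors' values. The member with the highest ATAC pileup, 15, lies on chromosome 9 at 69687500 to 69693421, with 216 H3K4ox tags in replicate 1 and 214 in replicate 2. Its ATAC fold was only 2.61, and its H3K4ox folds of 3.94 and 4.17 were below the lower quartile of the members. The next, on chromosome 18 at 15394975 to 15401629, had an ATAC pileup of 14 at a fold of 2.45 and H3K4ox folds of 3.68 and 3.48. In both regions a high pileup went with a low fold over the authors' background.

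Another member, on chromosome 6 at 74019821 to 74024622, combined an ATAC pileup of 11 and fold of 4.04 with 66.4 and 61.2 H3K4ox tags per kb, but the ATAC summit, at 74019883, lay just inside its edge. On chromosome 1 at 192500291 to 192502754, an ATAC peak of pileup 10 had a fold of 5.93 and a −log10 q of 2.90, the highest −log10 q among the regions named here. Its summit too lay toward the edge, 0.892 of the way from the midpoint, and the region's H3K4ox folds were 6.10 and 8.07. One of the 19 members tied at a pileup of 7, the first in chromosome order, lies on chromosome 1 at 96706193 to 96712012 and held it with H3K4ox folds of 10.4 and 8.62.

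The members with the highest H3K4ox scores held ATAC peaks of the pileups common among all members, of which 1092 had a highest pileup of 3 to 6. By the lower score of the replicates, the first lies on chromosome 20 at 29850594 to 29855718, with scores of 711 and 688, folds of 10.8 and 9.74 and 2 ATAC peaks of which the higher reached a pileup of 5. The next, on chromosome 5 at 89443459 to 89448848, had scores of 743 and 682 and an ATAC peak of pileup 4. Another, on chromosome 5 at 45580561 to 45585961, scored 739 and 676, and its ATAC peak of pileup 4 entered it by 16 bp, with the summit beyond the edge. The other two, on chromosome 1 at 106485727 to 106492773 and on chromosome 9 at 2892832 to 2899395, held ATAC peaks of pileup 3 and 6, and the last of these reached an ATAC fold of 4.48 and a −log10 q of 1.31. Over all members the authors' ATAC fold and the H3K4ox tags per kb had a Spearman rho of -0.082 in replicate 1 and -0.067 in replicate 2, over 1115 regions of the same libraries, too weak to be read as a relation.

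The longest member covers 11692 bp on chromosome 5, from 72266180 to 72277871, with 582 and 537 tags and an ATAC peak of pileup 5. It was followed by one of 11392 bp on chromosome 10 at 96908463 to 96919854, with an ATAC peak of pileup 4, and one of 10025 bp on chromosome 1 at 145048483 to 145058507, with an ATAC peak of pileup 6. The member with 3 ATAC peaks lies on chromosome 1 at 228708434 to 228713186, is 4753 bp long and had H3K4ox folds of 10.3 and 7.22, while none of its ATAC peaks passed a pileup of 4. Of the 41 tied at 2 ATAC peaks, the first in chromosome order lie on chromosome 1 at 173479152 to 173484366 and at 185220933 to 185226228, with highest pileups of 5 and 6. The 42 members with 2 or more ATAC peaks had a median length of 5020 bp, against 4691 bp for those with 1. Their H3K4ox was at much the same level, with medians of 47.3 and 46.1 tags per kb against 46.5 and 44.4.

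The rule of 1 bp divides regions that are hardly different. Just inside it, a region on chromosome 11 at 37262341 to 37267686 overlapped its ATAC peak by 5 bp, one on chromosome 2 at 72871116 to 72876049 by 6 bp and one on chromosome 11 at 55454657 to 55459500 by 8 bp. Just outside it, regions on chromosome 2 at 38338287 to 38340405 and on chromosome 5 at 24751775 to 24756095 ended 4 bp from an ATAC peak, and one on chromosome 3 at 1972057 to 1979462 ended 7 bp from one. Such cases were few, since 1112 of the 1158 ATAC peaks lay wholly inside their region and 51 regions without an ATAC peak had one within 100 bp. Of the regions without an ATAC peak, 3.64% had one within 1000 bp and 26.9% within 10000 bp, and the median distance was 23042 bp.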

How the data were processed

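Merged H3K4ox regions of 2 ChIP-seq replicates were compared with 1 ATAC peak list. The submitters' processing notes list Bowtie, Cufflinks and the build GRCh37, with no tool version, while no label names a peak caller, its settings or control, or a shift of ATAC reads. The H3K4ox lists have no header and the layout of a MACS 1.x table: the authors deposited a tag count, a score that rises as the peak's p-value falls, a fold ratio over a background and a false discovery rate in percent for each peak, called per replicate. The deposited ATAC list holds pileup (a coverage signal), fold and the −log10 of each q-value, per the file header. Library totals are not known, so tags per kb were not scaled between replicates.

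Peaks were merged at 1 bp or more on 22 autosomes. Tags per kb divided the tags of a replicate's peaks by their length, and for folds and scores the highest peak of a region was taken. Densities count ATAC summits per Mb of covered DNA, with exact Poisson intervals, and shares have exact Clopper-Pearson intervals, both at 95%. No test was run. Regions named follow a rule: the 5 with the highest ATAC pileup, the 5 with the highest lower score, the 3 longest, the 3 with the most ATAC peaks and the 3 on each side of the 1 bp limit, with ties taken in chromosome order. Members and this rule were chosen with earlier results of these data known. The interval code was tested on simulated regions with known overlaps. Alternatives covered the overlap, merging, thresholds, lengths, flanks, a chromosome and each replicate. Genes were not assigned, since no GRCh37 annotation was used here. Versions were Python 3.11.15, numpy 2.4.6, pandas 2.3.3, scipy 1.17.1 and matplotlib 3.10.9.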

Additional observations from a re-analysis of the deposited data

How the results depend on the processing

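No paired analysis was possible because no result comes from a test and 1 group with replicates was used. Values are ratios of members to the rest for length, tags per kb and fold (replicate 1, then 2), and of inside to flank for density, against 1.26, 1.05 and 1.04, 1.00155 and 1.00482, and 0.906 as reported. Counting an ATAC peak by its summit, or merging at 0.5 of the shorter peak, left 1095 and 1112 members, and moved no ratio or position beyond the spread between replicates and no share beyond its interval. With H3K4ox scores of 100 or more, the share of regions with an ATAC peak was 6.67%, length 1.07, tags 1.03 and 1.02, fold 0.995 and 0.972, density 0.898, the highest chromosome share 10.2% (chromosome 22) and the share of ATAC peaks of pileup up to 4 inside 1.82% (reported: 2.33%). With regions of up to 3 kb these were 269 members, a share of 3.49%, tags 1.02 and 1.02, fold 1.01 and 0.998, density 1.004, a lowest chromosome share of 0% (chromosome 22), and 0.0661% and 0.530% of ATAC peaks of pileup 8 or more and up to 4 inside. Regions of 4 to 6 kb gave 637 members, a share of 7.32%, tags 1.02 and 1.02, fold 0.973 and 0.998, density 0.858, a highest chromosome share of 10.4% (chromosome 15) and 1.36% of ATAC peaks of pileup up to 4 inside. Tags over the merged length gave 1.05 and 1.06, flanks of 50 kb a density of 0.889, and leaving out chromosome 20 tags of 1.05 in replicate 1 and a density of 0.917. With 1 replicate's peaks alone, the share ran from 4.85% to 4.87%, length from 1.60 to 1.63, density from 0.901 to 0.910, the highest chromosome share from 6.42% to 7.91% (both on chromosome 19, not 6), mean pileup of ATAC peaks in members over the others from 0.937 to 0.948 (reported: 0.939) and the share of ATAC peaks of pileup up to 4 inside from 2.42% to 2.56%. Tags were then 1.06 in each replicate and fold 0.988 in replicate 1 and 0.997 in replicate 2. The fold ratio thus lay on either side of 1 and has no stable direction.

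Few ATAC peaks pass a strict threshold. With a −log10 q of 5 or more, 17 ATAC peaks remained, 0 regions held one, 0% of those of pileup 8 or more lay inside, and the other values could not be given. Alternatives chosen after seeing the data used lower thresholds, and the mean pileup and the shares by pileup were also added then. At a −log10 q of 1.3, 220 regions (1.12%) held an ATAC peak, with length 1.19, tags 1.01 and 1.02, fold 0.996 and 1.01, mean pileup 0.954, density 0.685 and chromosome shares from 0.581% (chromosome 21) to 1.997% (chromosome 6). Without ATAC peaks of pileup 3, the share was 4.63%, tags 1.05 and 1.04, fold in replicate 2 1.01, the ratio of median pileups 0.8 (reported: 1) and density 0.880, with chromosome 19 the highest, at 6.51%. The cause of the differences between settings was not tested.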
